A study of Mus musculus with 12 samples.

Results

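A set of 9 genes of retinoic acid metabolism and response was followed through a differentiation of mouse embryonic stem cells: Rarb, Cyp26a1, Crabp1, Crabp2, Stra6, Stra8, Dhrs3, Aldh1a1 and Meis1. They were taken by gene symbol, with every probe that the array annotation assigns to them, which gave 11 probes for 9 genes, of 24613 probes and 15967 genes in all. The cells were W9.5, a mouse embryonic stem cell line, measured on 12 Illumina BeadChip arrays of total RNA, 3 arrays on each of days 0, 4, 8 and 15. According to the labels the cells met activin A first, retinoic acid next and retinoic acid together with fibroblast growth factor last, on the way to pancreatic progenitor cells. This text is the same for day 0 as for the later days, no label ties an agent to a day, and no culture without retinoic acid was measured, so time in culture and exposure to retinoic acid cannot be told apart. Nothing says that the 3 arrays of a day came from separate cultures, and p-values therefore measure only the spread between these arrays.

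Retinoic acid is made from vitamin A (retinol). Cells take up retinol from its blood carrier, oxidise it to retinaldehyde and then, by retinaldehyde dehydrogenases such as Aldh1a1, to retinoic acid. Small cytosolic proteins, Crabp1 and Crabp2, bind the acid, receptors of the RAR family (Rarb among them) pair with RXR receptors on DNA and switch on targets when the acid binds, and the Cyp26 enzymes break it down. Retinoic acid is known for patterning the embryonic body axis, for its part in the specification of the pancreas from foregut endoderm, and for driving germ cells into meiosis.

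Rarb and Cyp26a1 are textbook targets whose promoters carry elements for the receptors, so the promoter sequences of both are shown here. They come from the RefSeq promoter windows of build GRCm38.p6, from 250 bases before to 50 bases after the annotated start, and are written 5′ to 3′ on the strand of the gene. Promoters of 8 of the 9 genes, 14 windows in all, were searched on both strands for direct repeats with 5, 2 or 1 bases between the hexamers, where each hexamer could be AGGTCA or else AGTTCA or else GGGTCA or else GGTTCA. Capitals mark the matches. The Rarb window lies at chr14:16575427-16575726 on the minus strand and the Cyp26a1 window at chr19:37697558-37697857 on the plus strand.
Rarb: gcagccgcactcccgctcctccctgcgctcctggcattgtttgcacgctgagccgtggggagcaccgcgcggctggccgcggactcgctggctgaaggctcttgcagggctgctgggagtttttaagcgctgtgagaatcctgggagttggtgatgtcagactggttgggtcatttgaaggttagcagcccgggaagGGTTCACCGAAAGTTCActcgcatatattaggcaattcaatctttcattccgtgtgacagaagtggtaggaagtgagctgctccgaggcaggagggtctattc
Cyp26a1: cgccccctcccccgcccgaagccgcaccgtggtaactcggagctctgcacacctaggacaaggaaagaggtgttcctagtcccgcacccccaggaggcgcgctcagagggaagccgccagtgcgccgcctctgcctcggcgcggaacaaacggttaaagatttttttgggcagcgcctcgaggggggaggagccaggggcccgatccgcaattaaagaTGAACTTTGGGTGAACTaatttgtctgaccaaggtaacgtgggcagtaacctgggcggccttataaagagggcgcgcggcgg

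Read in the direction of the repeat, with the hexamers in capitals, the matches compare as follows.
Rarb repeat: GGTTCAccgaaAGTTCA
Cyp26a1 repeat: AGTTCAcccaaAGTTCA

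Both are direct repeats with 5 bases between the hexamers, and they share the second hexamer. The Rarb repeat runs from base -53 to base -37 before the annotated start, on the strand of the gene. The Cyp26a1 repeat runs from base -32 to base -16, on the opposite strand. Of all 32851 promoter windows, 32 held a repeat with 5 bases between (0.0974%), 88 one with 2 (0.268%) and 73 one with 1 (0.222%). The windows of Crabp1, Stra6, Stra8, Dhrs3, Aldh1a1 and Meis1 held none of these letters, which says nothing of elements elsewhere. Only 4 genes with the 5-base repeat in their window were measured well enough to be tested on the arrays: Rarb, Cyp26a1, Blvrb and Cfap45. Between day 8 and day 4 Rarb and Cyp26a1 rose, as described below, while Cfap45 fell by 1.28 on the log2 scale (adjusted p = 2.4e-06) and Blvrb had a difference of 0.15 (adjusted p = 0.521). Of 7 tested genes with a 2-base repeat, 2 were called higher and 2 lower in this step. With a 1-base repeat, 4 of 20 were higher and 5 lower. Among all 7829 tested genes with a promoter window, 2186 (27.9%) were higher and 2126 lower.

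Levels are log2 intensities after background correction and quantile normalization, on which each array has a detection floor between 5.04 and 5.33, the lowest signal of any probe with a detection p-value under 0.05. Between 11253 and 12554 probes were detected per array. Correlations of levels across the 9657 tested genes were at least 0.987 between arrays of the same day and at most 0.968 between arrays of different days, and no array stood apart from its day. Levels of different genes are not compared as amounts of RNA, because each probe has its own response. Sums of marker intensities add the signals of different probes, and the share of a gene in them is a share of signal. The shares of cell types in the cultures were not measured, and fewer cells of a type cannot be told apart from less RNA per cell. On day 0, 7 of 8 stem cell markers, Pou5f1 and Nanog among them, were detected on all 3 arrays. Of 8 pancreatic progenitor markers with a probe, 5 were not detected on any array of day 15, among them Ptf1a, Nkx6-1 and Pdx1, of which Pdx1 was detected on 1 of 3 arrays on day 8. Sox9 and Rfx6 were detected on all 3 arrays of day 15 and Onecut1 on 2, and of these 3, the ones tested, Sox9 and Rfx6 were higher on day 15 than on day 0. From day 8 to day 15, however, 1 of these 3 was called lower and none higher. Rfx6 had a mean of 9.01 on day 8 and 6.31 on day 15. The background-corrected intensities of the 8 markers summed to 856.3 to 1049 on the arrays of day 8, against 433.2 to 534.1 on those of day 15.

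Of the 9 genes, 8 had a probe detected on at least 3 of 12 arrays and entered the limma test, and Dhrs3 did not. Aldh1a1, Crabp2 and Stra6 were detected on days 8 and 15 alone. They passed the filter through the days on which they were high, so that counts over the genes tested are no independent support for a rise by day 8.

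**Figure D1:**
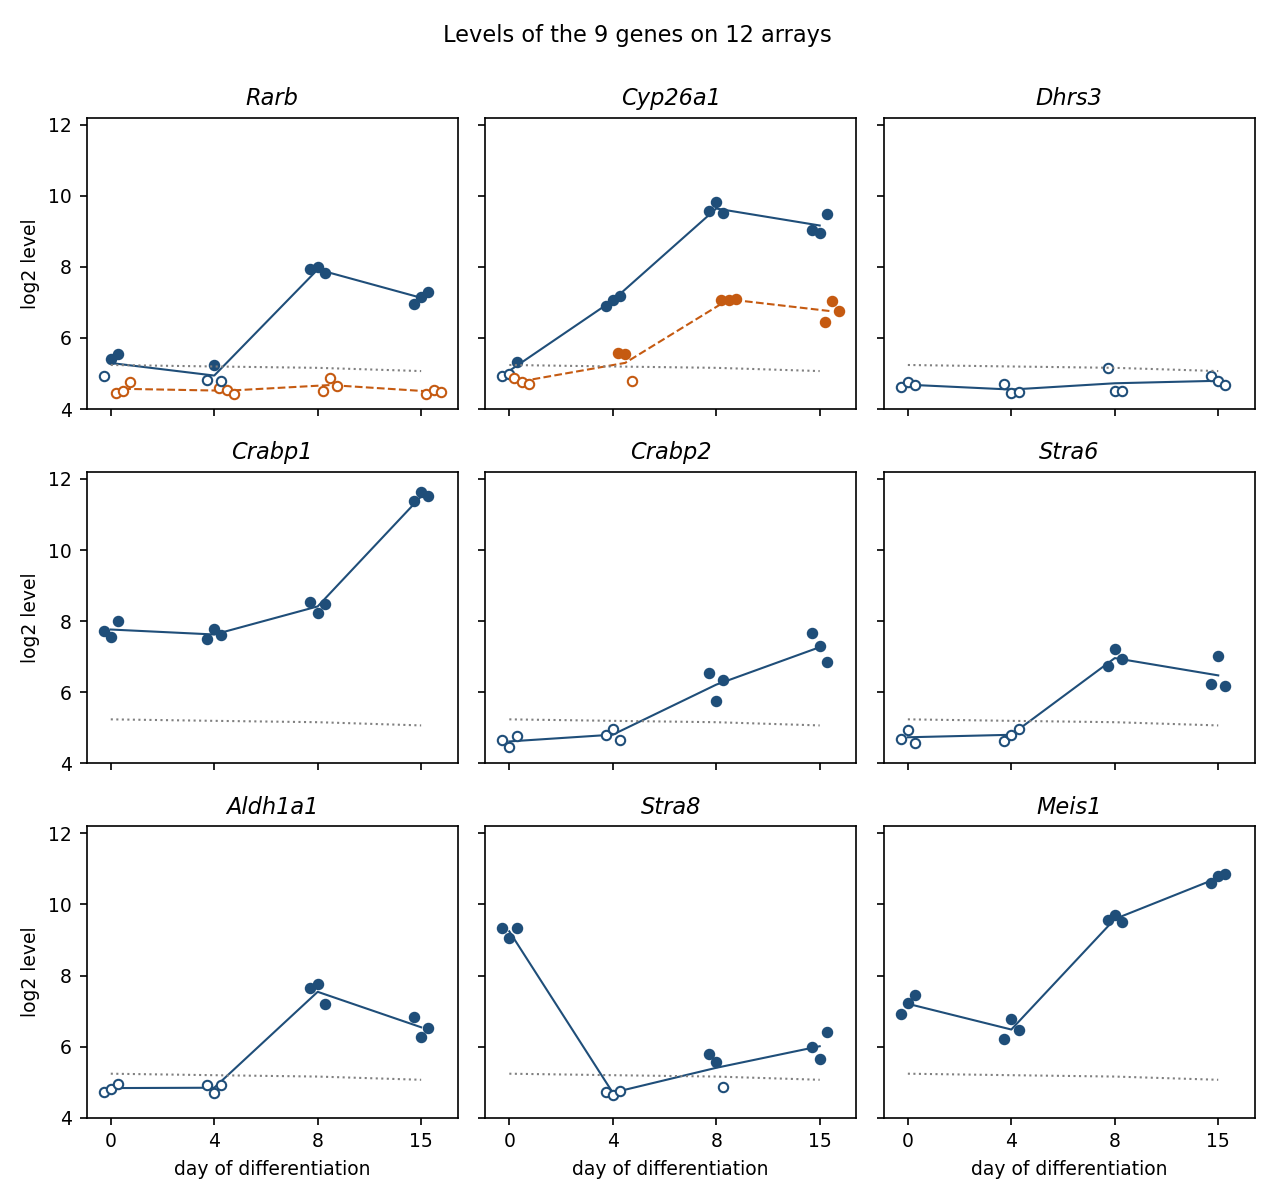
Log2 level (vertical axis) of each gene on days 0, 4, 8 and 15 (horizontal axis, evenly spaced); points are single arrays, filled where detected and open where not, lines join day means and the dotted line is the mean detection floor. Dashed orange marks the second probe of Rarb and of Cyp26a1. Stra8 was high on day 0 alone, Crabp1 and Meis1 were highest on day 15, and Rarb, Cyp26a1, Stra6 and Aldh1a1 had their highest mean on day 8.

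Rarb, a receptor that retinoic acid itself induces, appeared clearly on day 8. The log2 levels of its detected probe were 4.94, 5.41 and 5.54 on day 0, 4.82, 5.23 and 4.78 on day 4, 7.95, 8.00 and 7.83 on day 8, and 6.96, 7.14 and 7.29 on day 15. Days 0 and 4 lay around the floor, with detection on 2 and 1 of 3 arrays, and every array of days 8 and 15 lay above every array of days 0 and 4. The rise from day 4 to day 8 was at least 6.58-fold against the floor of day 4 (fitted log2 difference 2.99 ± 0.18, SE, n = 3 arrays per day, adjusted p = 2.9e-10). From day 8 to day 15 Rarb fell 1.74-fold (-0.80 ± 0.18, adjusted p = 0.00329), without overlap between the arrays, and on day 15 it was still at least 3.26-fold above day 0 (adjusted p = 8.1e-08). The difference between day 4 and day 0 was not called (-0.36 ± 0.18, 95% confidence interval -0.73 to 0.02, adjusted p = 0.161), but without day 0 replicate 1 it was (-0.53, adjusted p = 0.0423). The second Rarb probe, annotated to the same transcript accession, stayed under detection on all 12 arrays (levels 4.43 to 4.88), so the rise rests on 1 probe.

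Among the other receptors, Rarg fell over the first 2 steps and was opposite in direction to Rarb between day 8 and day 4. Its means were 7.19, 6.08, 4.66 and 4.64 in order of time, and no array of days 8 and 15 detected it. Rarg was 2.15-fold lower on day 4 than on day 0 (-1.11 ± 0.14, adjusted p = 1.3e-05) and at least 1.90-fold lower on day 8 than on day 4 (adjusted p = 1.9e-07). Rxrb, a partner of the RARs, had day means between 10.07 and 10.30 and was not called in any of the 4 comparisons. Rara, which is another receptor of the acid, and Ppard, a related nuclear receptor, were not detected on any array, and Rxrg was detected on 2 arrays of day 4 alone.

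Cyp26a1, which breaks down retinoic acid and is induced by it, rose in both of the first steps. Its brighter probe read 4.92, 4.98 and 5.33 on day 0, 6.91, 7.08 and 7.18 on day 4, 9.58, 9.83 and 9.51 on day 8, and 9.05, 8.96 and 9.48 on day 15. The arrays of days 0, 4 and 8 formed separate ranges, each above the one before, with detection on 1 of 3 arrays on day 0 and on all later arrays. Cyp26a1 was at least 3.43-fold higher on day 4 than on day 0 (fitted difference 1.98 ± 0.17, adjusted p = 9.4e-08) and 5.98-fold higher on day 8 than on day 4 (2.58 ± 0.17, adjusted p = 8.8e-10). Rarb had no called difference in the first step, and the difference between the genes was not tested.

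The second Cyp26a1 probe gave lower levels in the same order of days. It was not detected on day 0 (mean 4.78), was detected on 2 of 3 arrays on day 4 (5.30 ± 0.45, SD, n = 3), and reached 7.09 ± 0.02 on day 8 and 6.75 ± 0.29 on day 15. With each detected probe tested on its own, its rise by day 8 over day 4 was at least 3.21-fold (adjusted p = 1.1e-06) and its difference of 0.52 between day 4 and day 0 was not called (adjusted p = 0.0717). For the brighter probe the step from day 8 to day 15 (-0.48 ± 0.17, 95% confidence interval -0.83 to -0.12, adjusted p = 0.0554) lay close to the threshold, and 8 of 22 alternative settings called it lower.

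Of the other enzymes of breakdown 3 were tested. From day 4 to day 8, 2 of them were called higher, where 28.1% of all tested genes were, and 1, Cyp1b1, was not called. Cyp1b1 had means of 7.44, 7.71, 7.46 and 8.00 in order of time. None of the 3 was called from day 0 to day 4. Cyp26b1, a relative of Cyp26a1 with the same activity, was detected on all arrays and was 2.67-fold higher on day 8 than on day 4 (adjusted p = 3.0e-05) and a further 4.80-fold higher on day 15 than on day 8 (2.26 ± 0.22, adjusted p = 5.2e-07), at a mean of 10.06. Cyp2s1, a cytochrome P450 that can oxidise retinoic acid, was 5.61-fold higher on day 8 than on day 4 (adjusted p = 6.9e-10).

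Dhrs3, an enzyme that returns retinaldehyde to retinol, stayed under detection on all 12 arrays. Its levels ranged from 4.45 to 5.16, and its lowest detection p-value, on day 8 replicate 1, was 0.0535. With no filter on dim probes its adjusted p-values in the 4 comparisons lay between 0.383 and 0.857. Such a probe gives only a bound, and says that the gene was not well above background with this probe.

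Crabp1 and Crabp2, the cytosolic carriers of retinoic acid, both climbed to day 15 but from different starts. Crabp1 was detected on all 12 arrays and read 7.73, 7.56 and 8.01 on day 0, 7.51, 7.77 and 7.60 on day 4, 8.53, 8.24 and 8.48 on day 8, and 11.37, 11.64 and 11.52 on day 15. Days 0 and 4 overlapped, day 8 lay just above them, and day 15 stood far above all other days. Crabp1 was not called between day 4 and day 0 (-0.14 ± 0.15, 95% confidence interval -0.44 to 0.17, adjusted p = 0.542). It was 1.72-fold higher on day 8 than on day 4 (0.79 ± 0.15, adjusted p = 2.0e-04) and 8.54-fold higher on day 15 than on day 8 (3.09 ± 0.15, adjusted p = 7.0e-11).

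Crabp2 was below detection on days 0 and 4, with levels between 4.45 and 4.96. It read 6.55, 5.75 and 6.35 on day 8 and 7.66, 7.29 and 6.86 on day 15. All arrays of day 15 were above all arrays of day 8, though the spread within each day was wide (SD 0.40 on day 15 and 0.41 on day 8). Crabp2 was at least 2.02-fold higher on day 8 than on day 4 (adjusted p = 2.5e-05) and 2.08-fold higher on day 15 than on day 8 (1.06 ± 0.21, adjusted p = 0.00142).

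The genes of uptake and synthesis among the 9, Stra6 and Aldh1a1, appeared on day 8 and did not rise further. Stra6, the membrane receptor through which cells take retinol from its carrier, was not detected on days 0 and 4 (levels 4.58 to 4.98). It read 6.74, 7.21 and 6.94 on day 8 and 6.23, 7.02 and 6.18 on day 15, with overlap between these days. It was at least 3.40-fold higher on day 8 than on day 4 (adjusted p = 1.0e-07). Its difference between day 15 and day 8 was not called (-0.49 ± 0.21, 95% confidence interval -0.92 to -0.05, adjusted p = 0.108), but without day 15 replicate 2, its highest array on that day, it was (-0.76, adjusted p = 0.00792).

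Aldh1a1 was not detected on days 0 and 4 (4.69 to 4.95). Its levels were 7.66, 7.76 and 7.21 on day 8 and 6.84, 6.27 and 6.53 on day 15, all of day 15 below all of day 8. It was at least 5.09-fold higher on day 8 than on day 4 (adjusted p = 9.4e-10), and 2.0-fold lower on day 15 than on day 8 (-1.0 ± 0.18, adjusted p = 4.5e-04). Aldh1a2 and Aldh1a3, the other retinaldehyde dehydrogenases of the family that make retinoic acid in embryos, were not detected on any array.

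Stra8, a target that retinoic acid induces in germ cells at the entry to meiosis, behaved unlike the other genes and was high in the undifferentiated cells. It read 9.33, 9.07 and 9.33 on day 0, 4.74, 4.63 and 4.75 on day 4, 5.79, 5.56 and 4.87 on day 8, and 5.99, 5.65 and 6.4 on day 15. Day 0 lay far above every later array, no array detected the gene on day 4, and 2 of 3 arrays on day 8 and all 3 on day 15 detected it at a low level. Stra8 was at least 16.5-fold lower on day 4 than on day 0 (fitted difference -4.53 ± 0.22, adjusted p = 7.1e-11). It was higher again on day 8 than on day 4 (0.70 ± 0.22, adjusted p = 0.012, at least 1.16-fold), a call that was lost without day 8 replicate 1 (adjusted p = 0.0767) or replicate 2 (0.0518). On day 15 it was 9.37-fold below day 0 (adjusted p = 6.5e-10).

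Markers of germ cells were looked at beside it. Of 9 with a probe, 3 were detected on all arrays of day 0 (Dazl, Stk31 and Rec8) and 6 on none, among them Ddx4, Sycp3 and Dmc1, which define later germ cells. The background-corrected intensities of the 9 markers summed to between 694.8 and 786 on the arrays of day 4, against 739.9 to 848.8 on those of day 0. The ranges overlapped, and the detected markers differed among themselves: Stk31 fell (-0.63, adjusted p = 0.00849), Dazl had a difference of -0.41 (adjusted p = 0.135) and Rec8 one of 0.35 (adjusted p = 0.117). Their part in the fall of Stra8 was not tested.

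Meis1, a homeobox factor and cofactor of HOX proteins that retinoic acid induces, dipped and then rose to the end. It read 6.93, 7.24 and 7.45 on day 0, 6.22, 6.77 and 6.46 on day 4, 9.55, 9.70 and 9.52 on day 8, and 10.59, 10.81 and 10.85 on day 15. All 12 arrays detected it, and no pair of successive days overlapped. Meis1 was 1.65-fold lower on day 4 than on day 0 (-0.72 ± 0.16, adjusted p = 0.00314), 8.60-fold higher on day 8 than on day 4 (3.10 ± 0.16, adjusted p = 5.6e-11) and 2.24-fold higher on day 15 than on day 8 (1.16 ± 0.16, adjusted p = 4.1e-05). Its relative Meis2 had the same order of days, with means of 7.44, 6.88, 9.56 and 10.52 on days 0, 4, 8 and 15.

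**Figure D2:**
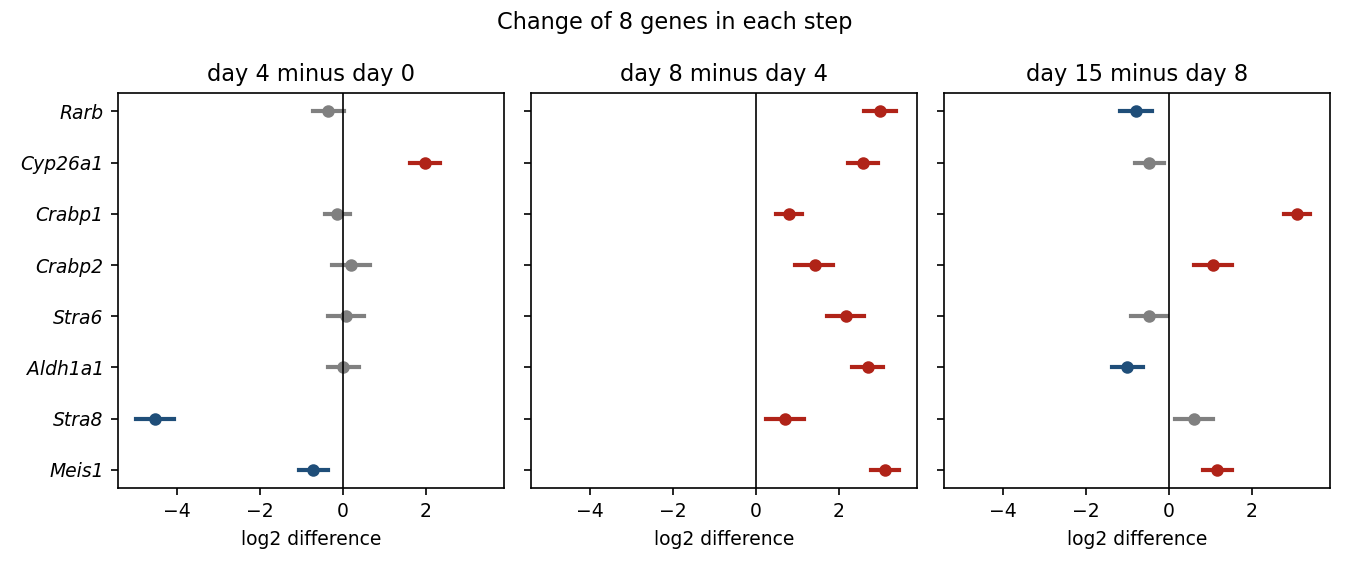
Log2 difference of the later minus the earlier day (horizontal axis) for the 8 tested genes (vertical axis) in each of the 3 steps; bars are 95% confidence intervals, red marks genes called higher, blue genes called lower and grey genes not called. All 8 lie above 0 in the step from day 4 to day 8, and the genes part in the other steps.

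The genes were then counted step by step. Successive comparisons share the arrays of the day between them, so their values are given side by side and not correlated. From day 0 to day 4, 1 of 8 tested genes rose (Cyp26a1), 2 fell (Stra8 and Meis1) and 5 were not called, where 27.0% of all 9657 tested genes were called. Over all genes 1420 were called higher and 1191 lower in this step, and with median scaling 1119 of 2556 calls were higher. The median log2 difference was -0.06 for the 8 genes and -0.04 for all genes. Of 8 visceral endoderm markers 5 were called higher and 1 lower (summed intensity 3838 to 4702 on the arrays of day 4, against 1034 to 1388 on those of day 0, with Afp not detected on either day). Of 10 mesenchyme markers 5 were higher and 1 lower (9857 to 12130 on day 4, against 7017 to 8971 on day 0), and of 8 stem cell markers none was higher and 3 were lower (18570 to 21230 on day 4, against 26360 to 32960 on day 0). Their part in these changes was not tested.

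From day 4 to day 8 all 8 tested genes rose, from Stra8 by 0.70 to Meis1 by 3.10 on the log2 scale, where 55.1% of all tested genes were called and 28.1% were called higher. Their median difference was 2.37, against -0.01 for all genes. Markers of visceral endoderm, an outer layer of the early embryo, moved with this step, and the list shares Ttr with the list of carriers: the summed intensity of 8 markers was 24380 to 30140 on the arrays of day 8 and 3838 to 4702 on those of day 4, and all 8 were detected on every array of day 8. Of these 8 markers 7 were called higher. Ttr had a mean intensity of 15480 on day 8 against 1065 on day 4, and so made up most of the day 8 sum. Most of the day 4 sum came from Amn, with a mean of 2576. Over the same step the sum of 8 stem cell markers was 5776 to 6295 on day 8 against 18570 to 21230 on day 4, with Dppa3 not detected on either day. Of these 8 markers 7 were called lower and 1, Klf4, higher. Klf4 had a mean intensity of 3842 on day 8 against 560.5 on day 4, and so made up most of the day 8 sum. The part of either shift in the rises was not tested.

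From day 8 to day 15 the genes parted: Crabp1, Crabp2 and Meis1 rose, Rarb and Aldh1a1 fell, and Cyp26a1, Stra6 and Stra8 were not called, where 22% of all tested genes were called, 12.6% higher and 9.39% lower. With replicate numbers entered as a block, all 8 were called, 4 higher and 4 lower, with Cyp26a1 (adjusted p = 0.021) and Stra6 (0.0372) lower and Stra8 (0.0363) higher. The block also raised the share called over all tested genes, to 29.6%. Visceral endoderm markers summed to 4594 to 7003 on the arrays of day 15, below the 24380 to 30140 of day 8, and all 8 were called lower. Most of the day 15 sum again came from Ttr, with a mean intensity of 4196. The sum of 10 mesenchyme markers was 25620 to 31110 on day 15, against 12350 to 13620 on day 8, with all 10 detected on every array of day 15. Of the 10, 7 were called higher and none lower. Most of the day 15 sum came from Acta2, Vim and Pdgfra, with mean intensities of 11240, 7960 and 5625. Vim already had 6036 on day 0, so that this sum does not by itself mark mesenchyme either. The sum of 9 neural markers was 1023 to 1363 on day 15, against 183.1 to 254.1 on day 8, with Sox1, Pax6, Map2 and Nefl not detected on either day. It was 1250 to 1400 on day 0, much of it from Stmn2, so that this sum does not by itself mark neural cells. Of 5 tested neural markers 4 were called higher on day 15 than on day 8 and none lower. The tested probe of Dcx was not detected on day 8 and had a mean of 8.82 on day 15, while its other probes were not detected on either day. Of 8 stem cell markers 5 were called higher and none lower, with sums of 8536 to 9004 on day 15, against 5776 to 6295 on day 8. The part of these shifts in the rises of Crabp1, Crabp2 and Meis1 or in the falls was not tested.

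Between day 15 and day 0 all 8 tested genes were called, 7 higher and Stra8 lower, where 67.5% of all tested genes were called, 31.9% higher and 35.6% lower. The rises were 13.4-fold for Crabp1 and 11.7-fold for Meis1, which were detected on all arrays of both days. For the others only bounds can be given: at least 14.8-fold for Cyp26a1, 4.08-fold for Crabp2, 3.26-fold for Rarb, 2.47-fold for Aldh1a1 and 2.36-fold for Stra6. Over the 4 days together the moderated F-test called 8 of 8, where 75.2% of all genes were called.

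The wider pathway was read from 6 lists that hold none of the 9 genes: 99 genes, of which 80 had a probe on the array and 51 were tested. From day 4 to day 8, 27 of the 51 rose and 7 fell (28.1% and 27.0% of all genes), and 17 were not called. The median log2 difference was 0.47. In the step before, from day 0 to day 4, 7 rose and 11 fell (14.7% and 12.3% of all genes). In the step after, from day 8 to day 15, 14 rose and 8 fell (12.6% and 9.39% of all genes). Between day 15 and day 0, 28 were higher and 13 lower (31.9% and 35.6% of all genes). Some of the 51, Zic1 and Foxa1 among them, were detected on days 8 and 15 alone. Such genes passed the filter through the days on which they were high, so these counts too are no independent support for a rise by day 8.

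**Figure D3:**
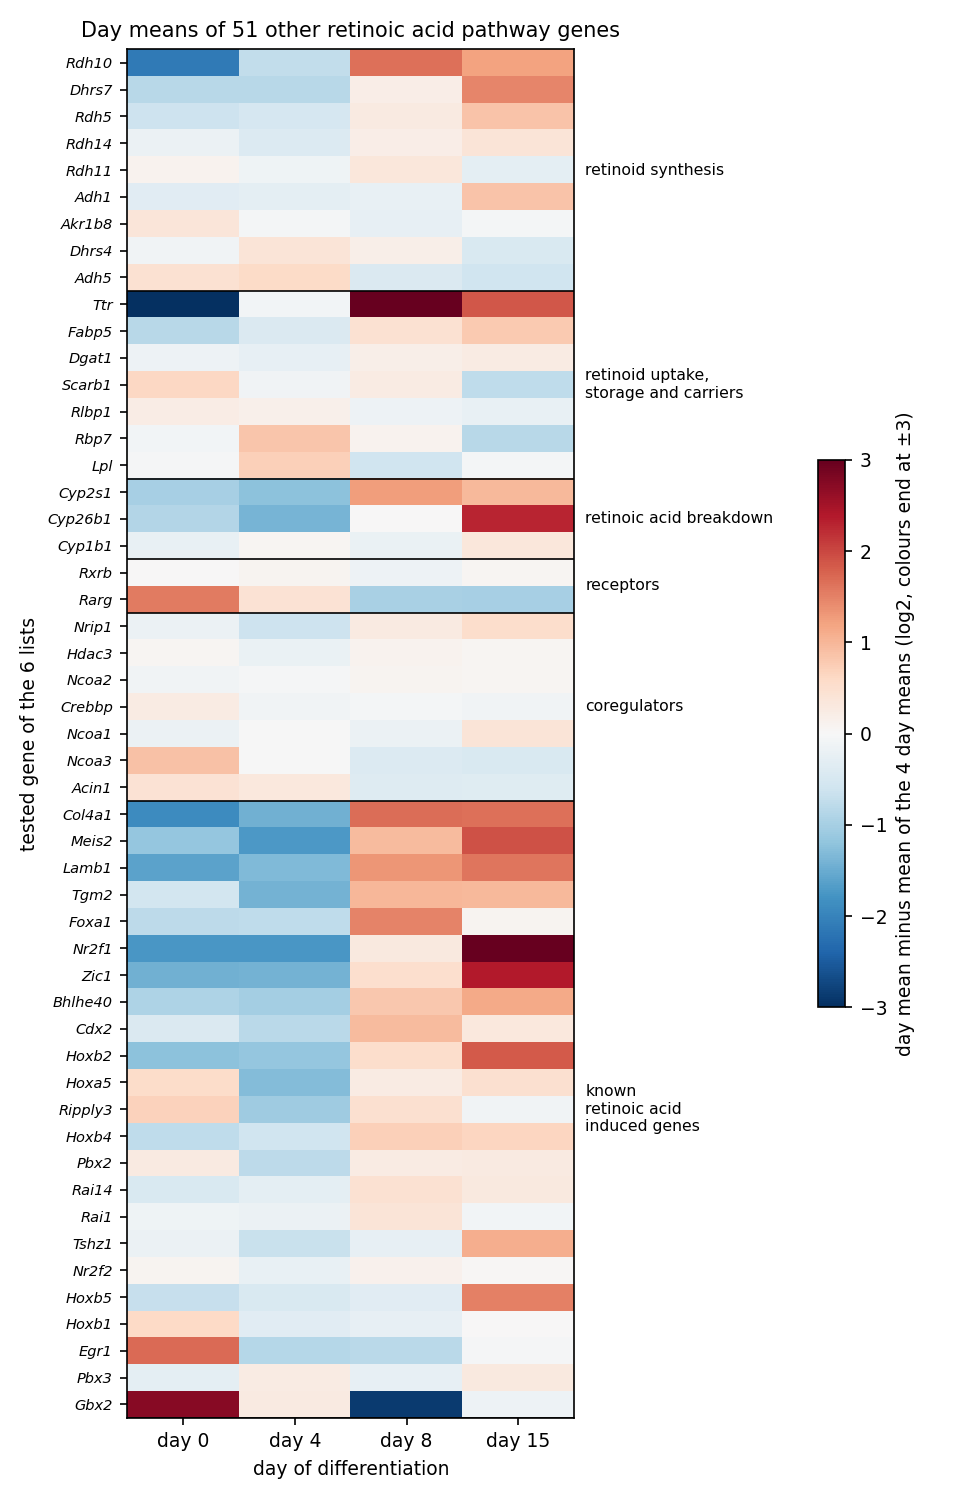
Day means of the 51 tested genes of the 6 lists (rows, grouped by role) on days 0, 4, 8 and 15 (columns), as the log2 difference from the mean of the gene's 4 day means; red is above and blue below that mean. The lists of synthesis, of breakdown and of induced genes hold rows that are blue on days 0 and 4 and red on days 8 and 15, and Rarg and Gbx2 run the other way by day 8.

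Of the synthesis genes, 9 of 19 were tested. Between day 8 and day 4, 5 rose and 1 fell (28.1% and 27.0% of all genes). Rdh10, the dehydrogenase that makes most embryonic retinaldehyde, rose in both of the first steps, 2.58-fold from day 0 to day 4 (1.37 ± 0.13, adjusted p = 2.3e-07) and 5.33-fold from day 4 to day 8 (2.42 ± 0.13, adjusted p = 4.5e-11), with day means of 7.29, 8.66, 11.07 and 10.62. Dhrs7, a dehydrogenase of the same broad family, was 2.04-fold higher on day 8 than on day 4 and 2.39-fold higher on day 15 than on day 8. Adh5, an alcohol dehydrogenase, was 2.00-fold lower on day 8 than on day 4. Adh1, which can oxidise retinol, was at least 1.81-fold higher on day 15 than on day 8, with detection on 3 and 1 of 3 arrays. In that step 2 of the 9 rose and 3 fell (12.6% and 9.39% of all genes). Among those that fell were Dhrs4, 1.56-fold lower (adjusted p = 0.0151), and Rdh11, 1.55-fold lower (adjusted p = 0.00408).

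Of 14 genes of uptake, storage and carriage, 10 had a probe and 7 were tested. Ttr, which carries the retinol carrier and thyroid hormone in blood, was at least 28.5-fold higher on day 4 than on day 0, another 14.3-fold higher on day 8 than on day 4, and 3.71-fold lower on day 15 than on day 8. Fabp5, which can deliver retinoic acid to a different receptor, was at least 1.70-fold higher on day 8 than on day 4 by its brighter probe, while its other probe was not detected on either day. Scarb1, a lipoprotein receptor that takes up carotenoids, was 2.01-fold lower on day 15 than on day 8, and Lpl, a lipase, was 2.48-fold lower on day 8 than on day 4. Lrat, which stores retinol as its ester, was not detected on any array. Counts for the list were 3 higher and 2 lower from day 4 to day 8 (28.1% and 27.0% of all genes).

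Of 7 tested coregulators, 1, 3 and 1 were called in the 3 steps in order of time, where 27.0%, 55.1% and 22% of all genes were. Nrip1, a corepressor of liganded receptors, was 1.89-fold higher on day 8 than on day 4 (adjusted p = 0.00195), and Ncoa3, a coactivator, was 1.84-fold lower on day 4 than on day 0 (adjusted p = 0.00456).

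Of 44 genes listed as induced by retinoic acid, 35 had a probe and 23 were tested. From day 0 to day 4, 2 rose and 8 fell (14.7% and 12.3% of all genes), with Gbx2, a homeobox factor, 5.55-fold lower and Egr1, an immediate early gene, 5.85-fold lower. From day 4 to day 8, 15 rose and 2 fell (28.1% and 27.0% of all genes). Col4a1, a chain of basement membrane collagen, was 8.68-fold higher (3.12 ± 0.12, adjusted p = 1.1e-12) and Meis2 6.37-fold higher, while Gbx2 was 8.74-fold lower on day 8 than on day 4. From day 8 to day 15, 9 rose and 2 fell (12.6% and 9.39% of all genes), with Nr2f1, an orphan nuclear receptor, 7.45-fold higher (2.90 ± 0.17, adjusted p = 1.1e-09), Gbx2 6.56-fold higher and Foxa1, a pioneer factor of endoderm, 2.62-fold lower. On day 15 Zic1, a zinc finger factor of neural tissue, was at least 11.2-fold above day 0.

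The order of days differed between the genes, and other genes shared each order. Likeness was measured as Pearson's r of log2 levels over the 12 arrays, which share their days, so that each r mostly compares 4 day levels. Among the 9 genes, Rarb was most like Aldh1a1 (0.97) and Stra6 (0.95), Crabp2 was most like Meis1 (0.94) and Crabp1 (0.89), and Stra8 had a negative r with each of the other 7, from -0.68 with Cyp26a1 to -0.15 with Crabp1. Of all other tested genes, the 3 most like Rarb were Frzb (0.983), Wwc2 (0.982) and Tff3 (0.981). For Cyp26a1 they were Foxa3 (0.996), Tceal9 (0.994) and Vegfa (0.994), all with means that rose from day 0 through day 4 to day 8. Those of Crabp1 were Vat1l (0.995), St8sia4 (0.995) and Cadps (0.993), and those of Crabp2 were Ces1d (0.992), Aqp8 (0.985) and Hoxb2 (0.984). Those of Stra6 were Myh9 (0.987), Fez2 (0.986) and Ank3 (0.984), and those of Aldh1a1 Cdc42ep2 (0.988), Zg16 (0.986) and Nepn (0.985). Stra8 was most like Cxcl1 (0.983), Gpx2 (0.980) and Egr1 (0.975), which also had their highest mean on day 0, and Meis1 was most like Prss35 (0.993), Dlk1 (0.991) and Samd14 (0.991).

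The authors' own value table, log2 intensities that keep the background, put the days of the 8 tested genes in the same order, and every difference called for them was smaller there. There Rarb averaged 6.41, 6.18, 8.20 and 7.60 on days 0, 4, 8 and 15, and Cyp26a1 6.26, 7.55, 9.60 and 9.20. Crabp1 averaged 8.12, 7.98, 8.58 and 11.28, Crabp2 5.87, 6.08, 6.98 and 7.71, and Stra6 6.0, 6.08, 7.5 and 7.15. Aldh1a1 averaged 6.10, 6.12, 7.92 and 7.18, Stra8 9.27, 6.0, 6.48 and 6.85, and Meis1 7.69, 7.17, 9.56 and 10.60. Dhrs3 stayed between 5.78 and 6.08. Folds from day 4 to day 8 were 4.06 for Rarb, 4.14 for Cyp26a1, 5.24 for Meis1, 3.50 for Aldh1a1 and 2.68 for Stra6 on that scale, and Stra8 was 9.66-fold lower on day 4 than on day 0. The calls for the 8 tested genes were the same on both scales, apart from Cyp26a1 between day 15 and day 8, which was called lower in the authors' table (-0.40, adjusted p = 0.0345).

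**Figure D4:**
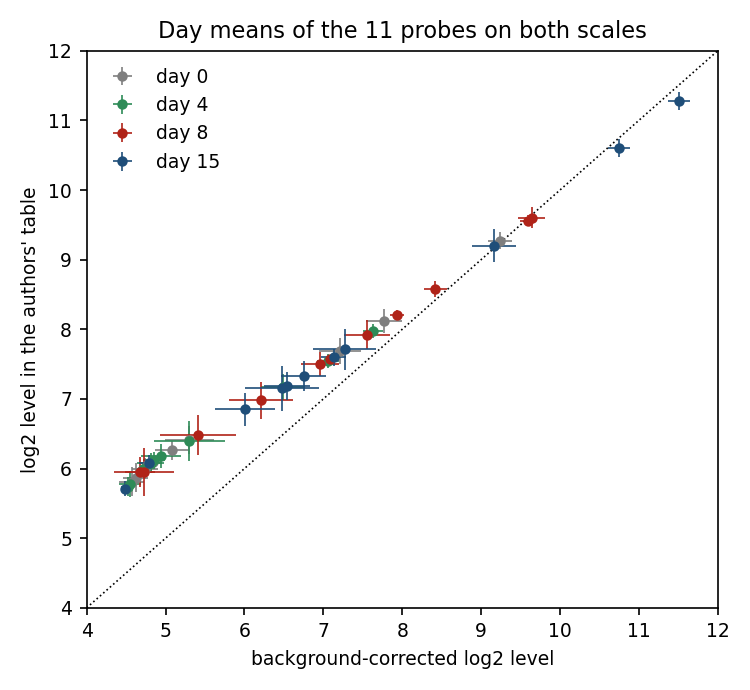
Day mean of each of the 11 probes after background correction (horizontal axis) against its mean in the authors' table (vertical axis), both log2; bars are SDs of 3 arrays, colours mark days and the dotted line marks equal values. Dim probes lie above the line, the dimmest by over 1, and the brightest just below it.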

How the data were processed

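Total RNA was labelled as biotinylated cRNA with an Illumina kit, per the labels' protocols, and 12 BeadChip arrays were deposited. The authors' scanner table gives an intensity for each probe, deposited without normalization, and a detection p-value per the file headers. Their second deposited table holds log2 values, normalized by a method not given in the sources used here. By gene symbol, 11 probes were found in the platform annotation. All 9 genes had their Entrez identifier and symbol in the RefSeq table, and promoters of 8 matched the RefSeq promoter table by symbol.

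The neqc function of limma 3.58.1 (R 4.3.3) corrected the background, inferring negative controls from detection p-values, added an offset of 16 and applied quantile normalization. This was preferred to the authors' table, which keeps the background, and that table was an alternative. A probe was kept where 3 or more arrays had a detection p-value below 0.05 (13421, of which 11787 named 1 gene), and the brightest probe stood for its gene. A limma model with a mean per day (8 residual degrees of freedom, moderated variances with an intensity trend) was fitted to the 9657 genes and 12 arrays. It was also run on simulated data with independent noise on each array and changes placed on day 4 alone. That run does not cover arrays that deviate together, and so does not give the error rates for these data. Calls use p-values below 0.05 after Benjamini-Hochberg adjustment over these genes. A fold is a lower bound ("at least") where not every array of the dimmer day detected the probe, taken per array against the higher of its floor and the probe's own level. The number of arrays limits the precision.

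The 9 genes, the pathway and marker lists, the motifs and the tests were chosen with earlier results of these data known. Named pathway genes are those with the largest called rises and falls of each list (at most 2 each way per comparison), and for each of the 8 tested genes the 3 most like it were named. Rxrb, Cyp1b1, the pathway genes that were not detected, and the markers other than Pou5f1, Nanog, Pdx1, Ptf1a and Nkx6-1 were named after their values were seen. Alternatives were the authors' table, an offset of 50, median scaling, no filter and a strict one, the mean of probes, single probes, no variance trend, the 6 arrays of a comparison, the replicate number as a block, and leaving out each array. Same-numbered arrays deviated together from their day means in every pair for day 15 with day 8 (r 0.336 to 0.44) and with day 0 (0.41 to 0.5), but not in every pair for the other comparisons (14 of 18 pairs in all over 0.1). For the first of these the block changed calls and is given beside the result.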

Additional observations from a re-analysis of the deposited data

How the results depend on the processing

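Over 22 alternatives, 687 of 704 values of a gene in a comparison stayed on their side of the threshold, 2 lost their call, 15 gained one and no called value changed direction. Uncalled differences near 0, of Aldh1a1 and Stra6 between day 4 and day 0, changed sign under some alternatives (lowest -0.04 and -0.02). The call lost was that of Stra8 between day 8 and day 4, without day 8 replicate 1 or 2. The gains were Cyp26a1 (8 alternatives, adjusted p over all of them between 0.0164 and 0.203), Stra6 (2, between 0.00792 and 0.349) and Stra8 (4, between 0.0237 and 0.319) between day 15 and day 8, and Rarb between day 4 and day 0 (1, between 0.0423 and 0.436). With the replicate block, 8 of 8 tested genes were called between day 15 and day 8 in place of 5, where the share of all genes called was 29.6% in place of 22%, and the block changed no other call of the 9 genes. Leaving out 1 array left 3 to 4, 7 to 8, 5 to 7 and 8 genes called for day 4 with day 0, day 8 with day 4, day 15 with day 8 and day 15 with day 0. Counts of the pathway lists stayed within 1.5 times, between 15 and 25, 30 and 38, 17 and 26, and 36 and 45 in the same order. Signal over background limits Dhrs3, the second Rarb probe and every level under the floor.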
